A study of Homo sapiens with 4 samples.

Results

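The genes described here are the bone morphogenetic protein (BMP) branch of TGF-beta family signalling and the ID genes it controls, read here in Huh-7, an established line of human hepatocellular carcinoma. They were chosen by name as the probe sets whose platform annotation gives BMP2, BMP4, BMPR1A, BMPR2, SMAD1, SMAD5, ID1, ID2, ID3 or ID4 as the only gene. Of these 10 genes, 9 had at least 1 such probe set, with 15 probe sets in all among the 22215 of the table, and BMPR1A was not analysed here. A further 3 probe sets name a member beside another gene and were left out. The series placed 2 arrays of untreated Huh-7 cells beside 2 arrays of Huh-7 cells harvested 48 h after addition of TGF-beta, in a study of molecular subtypes of hepatocellular carcinoma. All 4 samples were grown in Dulbecco's modified Eagle medium with serum, and no dose of TGF-beta is stated in the labels. Huh-7 is 1 tumour line without the other cells of a liver, and the labels do not say that the arrays of a group came from separate cultures, so the p-values reflect the spread of these 4 samples alone, and that spread may be technical.

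BMPs are secreted ligands that bring a type II receptor such as BMPR2 together with a type I receptor such as BMPR1A, BMPR1B, ACVR1 or ACVRL1. The type I receptor then phosphorylates SMAD1, SMAD5 and SMAD9, which enter the nucleus with SMAD4 and activate target genes, the ID genes foremost among them. TGF-beta itself acts mainly through SMAD2 and SMAD3, and in some cell types it also reaches SMAD1 and SMAD5. The ID proteins carry a helix-loop-helix domain without a DNA-binding region, so they bind E proteins such as TCF3, TCF4 and TCF12 and keep them off DNA. In hepatocytes the same receptors control HAMP, the gene of the iron hormone hepcidin.

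No gene of the BMP branch passed the test after TGF-beta. Of the 15 probe sets 0 were called with limma at an adjusted p under 0.05 and 0 had an unadjusted p under 0.05, where 0.855% of all 22215 probe sets were called (0.41% higher and 0.446% lower) and 16.3% had an unadjusted p under 0.05. Log2 fold changes, TGF-beta minus untreated, were positive for 12 probe sets and negative for 3. Their median was 0.09, beside -0.007 for all probe sets. The 95% interval of the difference lay within a 2-fold change either way for all 15 probe sets. The groups did not overlap for 5 of the 15 probe sets (4 higher and 1 lower after TGF-beta), against 47.1% of all probe sets.

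The arrays had nearly equal overall brightness, with median intensities of 50.1 to 51.0. Hepatocyte markers such as ALB, AFP and APOA1 were bright, with all 11 measured members of a list of 12 above the median probe set. Above it were also 2 of 8 fibroblast and stellate markers, 0 of 6 endothelial markers and 1 of 7 leukocyte markers (CD14). CD14, a lipopolysaccharide co-receptor, and APOA1 were the only genes of these marker lists whose brightest probe set was called, at 2.005-fold and 1.67-fold higher after TGF-beta (limma, adjusted p = 0.0185 and 0.0454). Of the hepatocyte genes TTR stood lower, at -0.63, and SERPINA1 higher, at 0.60, and neither was called (limma, adjusted p = 0.0533 and 0.0651). Summed over its genes, the hepatocyte list read 91534 and 94429 untreated against 100736 and 97420 treated. The endothelial list read 190.4 and 189.5 against 185 and 180, so both sums separated, in opposite directions. The endothelial genes were dim and 4 of the 6 had positive values, while PECAM1 read 49.0 and 51.8 untreated against 43.5 and 36.6 treated. Of the fibroblast and stellate genes 6 of 8 had negative values (median -0.139), and 0 were called. COL1A1 (a fibrillar collagen chain) stood at -0.44 and DCN (decorin) at -0.53, both from dim readings (limma, adjusted p = 0.11 and 0.143). The fibroblast sum, 7515 and 6983 untreated against 7049 and 7553 treated, was almost all LUM, and without it was 331 and 291 against 272 and 261. The leukocyte sum was 265 and 267 untreated against 326 and 348 treated, and without CD14 it was 189.5 and 192 against 179.9 and 191. LUM and CD14 were set aside after their values were seen. The samples are labelled as Huh-7 alone, so these lists are read as marker levels within 1 line. Their relation to the BMP branch values was not tested.

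**Figure D1:**
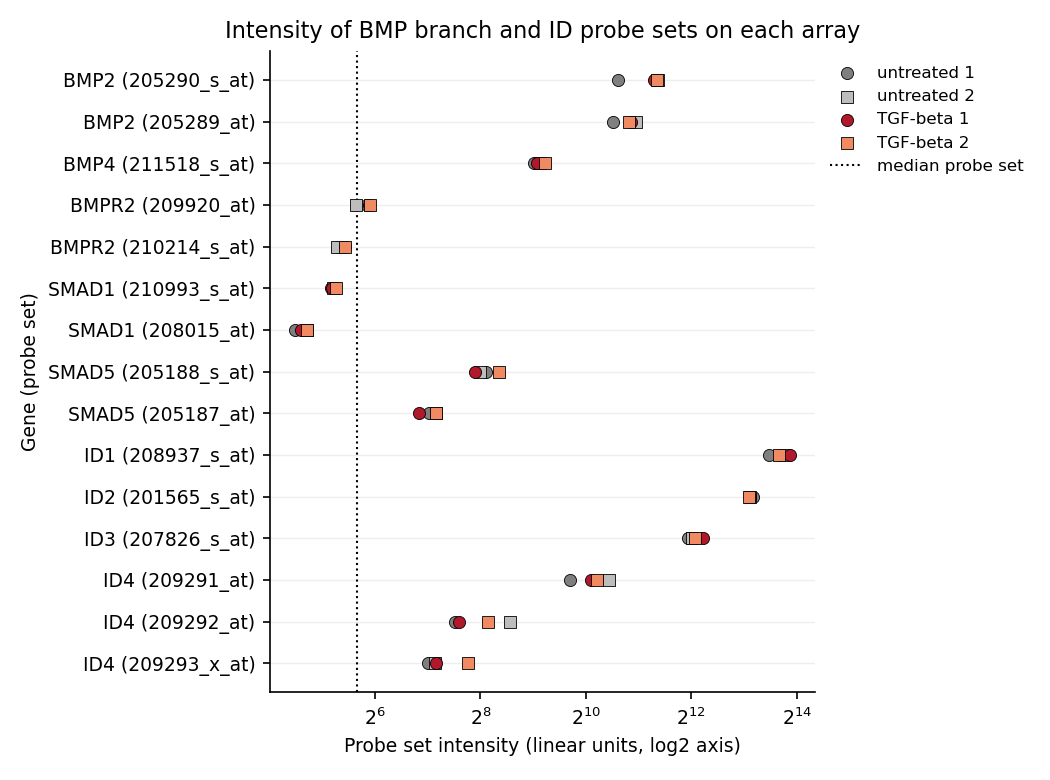
Intensity of each of the 15 probe sets (horizontal axis, linear units on a log2 axis) on the 2 untreated (grey) and 2 TGF-beta (red and orange) arrays, with the median probe set as a dotted line. Levels of different probe sets are not comparable with each other. Untreated array 1 lay apart from the other arrays for BMP2 and for ID4 209291_at, and the SMAD1 probe sets and BMPR2 210214_s_at lay below the dotted line.

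Among the member genes, the ligand BMP2 gave the largest positive value of any brightest probe set, and that value came from 1 untreated array. BMP2 is a secreted dimeric ligand first known for inducing bone. Its brighter probe set, 205290_s_at, read 1571 and 2639 in the untreated arrays and 2525 and 2627 in the treated arrays. Untreated array 1 was low, while untreated array 2 lay above both TGF-beta arrays, so the groups overlapped. The log2 means were 10.99 ± 0.53 and 11.33 ± 0.04 (SD, n = 2 each), a log2 fold change of 0.34 ± 0.22 (SE), with a 95% interval of -0.17 to 0.85 and an adjusted p of 0.512 in limma. The other probe set of BMP2, 205289_at, read 1457 and 1985 in the untreated arrays and 1845 and 1798 in the treated arrays. It showed the same low untreated array 1, and its log2 fold change was 0.10 ± 0.15 (SE, adjusted p = 0.823).

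Leaving out either untreated array moved BMP2 in opposite directions. Without untreated array 1 the log2 fold change of 205290_s_at was -0.04 (limma, adjusted p = 0.949), and that of 205289_at was -0.12. Without untreated array 2 the first was 0.71 and passed the threshold (limma, adjusted p = 0.0291). In that fit the lone untreated array is assumed to vary like the other group. BMP4, the close relative of BMP2, has 1 probe set, which read 521 and 561 in the untreated arrays and 538 and 601 in the treated arrays. Its arrays interleaved, with a log2 fold change of 0.07 ± 0.11 (SE) and a 95% interval of -0.19 to 0.34.

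BMPR2, the type II receptor that binds BMPs, had both probe sets slightly above untreated on both TGF-beta arrays. Probe set 209920_at read 57.4 and 49.7 in the untreated arrays and 59.6 and 59.9 in the treated arrays, and 210214_s_at read 39.3 and 38.9 against 43.0 and 43.2. The groups did not overlap for either probe set, as for 47.1% of all probe sets in 1 direction or the other. The log2 fold changes were 0.16 ± 0.12 and 0.14 ± 0.10 (SE). The first was 0.27 without untreated array 1 and 0.058 without untreated array 2. Neither had an unadjusted p under 0.05, and their adjusted p in limma was 0.553 and 0.563. These readings lay close to the median probe set of about 50, where there is little room above background, so a change in BMPR2 may be understated.

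The member SMADs that carry the BMP signal, SMAD1 and SMAD5, showed no difference beyond their spread. SMAD1 was dim, with readings of 35.9 and 36.9 in the untreated arrays and 36.3 and 38.1 in the treated arrays for 210993_s_at, and of 22.3 and 26.3 against 24.2 and 26.1 for 208015_at. Both lay below the median probe set, and their log2 fold changes were 0.03 ± 0.10 and 0.06 ± 0.12 (SE). The brighter probe set of SMAD5, 205188_s_at, read 276 and 254 in the untreated arrays and 240 and 325 in the treated arrays. The TGF-beta arrays took both the lowest and the highest place, and the log2 fold change was 0.08 ± 0.16 (SE), with a 95% interval of -0.29 to 0.44. The other probe set, 205187_at, read 130.2 and 143 against 114 and 142 and gave -0.10 ± 0.14 (SE). Without TGF-beta array 2 the first of these values turned to -0.14, and without TGF-beta array 1 the second turned to 0.06.

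**Figure D2:**
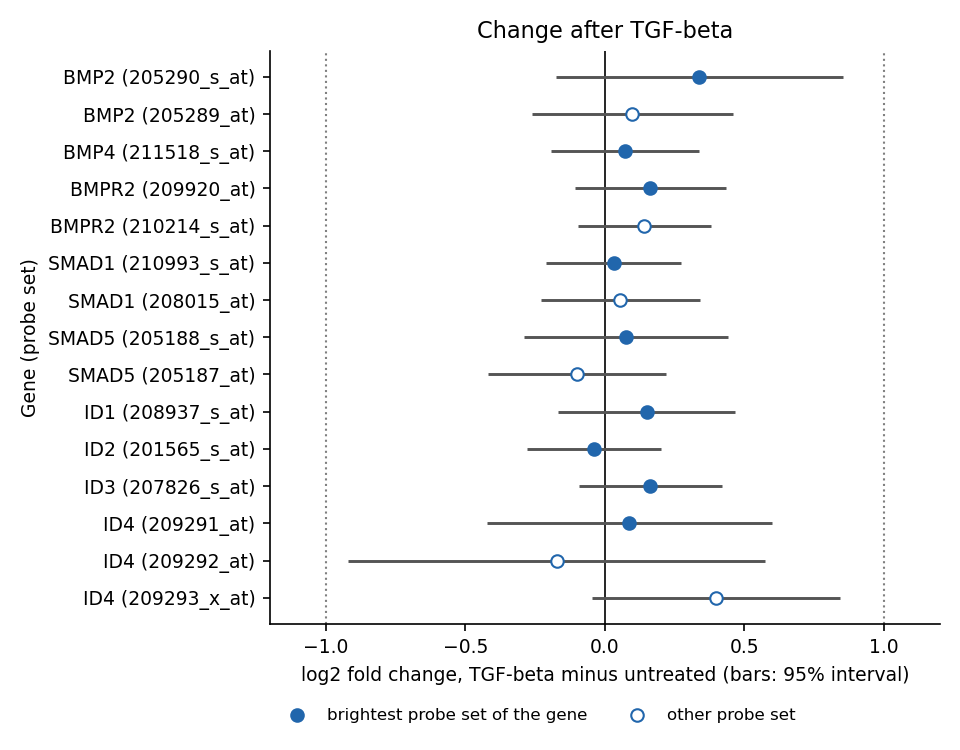
Log2 fold change (horizontal axis, TGF-beta minus untreated) of the 15 probe sets, with 95% intervals from limma and n = 2 arrays per group. Filled points are the brightest probe set of each gene, open points the others, and dotted lines mark a 2-fold change. Every interval covers 0 and stays between the dotted lines, and the widest is that of ID4 209292_at.

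The ID genes are the usual readout of this branch, and for that reason their promoter sequences are shown. ID1, ID3 and ID4 had their lowest reading on untreated array 1, as did BMP2, BMP4 and SMAD1, while ID2 did not. No relation of sequence to these readings was tested. The windows shown are the 250 bases before the annotated start of each ID gene (RefSeq, GRCh38.p14, 5′ to 3′ on the strand of the gene). They are chr20:31605039-31605288 on the plus strand for ID1, chr2:8681806-8682055 on the plus strand for ID2, chr1:23559502-23559751 on the minus strand for ID3 and chr6:19837120-19837369 on the plus strand for ID4. Capitals mark the CCAAT box and the TATA box, the latter searched as TATAAA, each on either strand.
ID1: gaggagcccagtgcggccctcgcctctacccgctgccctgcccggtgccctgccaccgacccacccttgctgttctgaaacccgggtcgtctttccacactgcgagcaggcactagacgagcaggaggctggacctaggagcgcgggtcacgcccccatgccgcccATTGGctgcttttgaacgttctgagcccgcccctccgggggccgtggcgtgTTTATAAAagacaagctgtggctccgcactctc
ID2: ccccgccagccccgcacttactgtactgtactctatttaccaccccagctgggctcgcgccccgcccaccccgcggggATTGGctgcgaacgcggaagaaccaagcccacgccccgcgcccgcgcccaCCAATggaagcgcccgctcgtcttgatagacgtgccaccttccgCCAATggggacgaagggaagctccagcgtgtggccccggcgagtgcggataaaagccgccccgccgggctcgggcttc
ID3: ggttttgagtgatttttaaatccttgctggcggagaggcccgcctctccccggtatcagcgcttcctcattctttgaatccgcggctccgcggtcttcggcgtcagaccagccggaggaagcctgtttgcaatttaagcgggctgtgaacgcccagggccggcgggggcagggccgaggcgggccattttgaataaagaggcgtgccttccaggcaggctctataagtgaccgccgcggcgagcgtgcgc
ID4: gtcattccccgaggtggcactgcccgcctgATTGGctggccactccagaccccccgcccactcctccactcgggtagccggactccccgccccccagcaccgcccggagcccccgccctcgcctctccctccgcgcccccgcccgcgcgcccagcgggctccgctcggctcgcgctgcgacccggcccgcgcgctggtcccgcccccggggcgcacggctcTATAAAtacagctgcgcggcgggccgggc
In these windows CCAAT matched in ID1, ID2 and ID4, and TATAAA in ID1 and ID4, where the ID1 match overlaps its own reverse complement. Searched on both strands of 35116 RefSeq promoters of the same length, CCAAT was held by 32.0% and TATAAA by 10.7%. GGCGCC, a GC-rich box bound by the BMP SMADs, was held by 16.4% of promoters and matched in 0 of the 4 ID windows, which says only that these letters are not in the 250 bases. The 4 windows had GC contents of 62.0% to 78.8%, beside a median of 58% over all promoters, with that of ID3 the lowest and that of ID4 the highest. Of the 10 member genes 9 had an entry among these promoters.

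ID1, the ID gene most used as a marker of BMP signalling, read 11466 and 13811 in the untreated arrays and 15058 and 12953 in the treated arrays. Untreated array 2 lay between the TGF-beta arrays, so the groups overlapped. The log2 means were 13.62 ± 0.19 and 13.77 ± 0.15 (SD, n = 2 each), a log2 fold change of 0.15 ± 0.14 (SE), with a 95% interval of -0.17 to 0.47 and an adjusted p of 0.661 in limma. It was 0.016 without untreated array 1 and 0.28 without untreated array 2, and 0.042 and 0.26 without TGF-beta array 1 and 2.

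ID3, whose product also pairs with E proteins, read 3951 and 4163 in the untreated arrays and 4763 and 4328 in the treated arrays. Both TGF-beta arrays lay above both untreated arrays, a separation that 47.1% of all probe sets showed in 1 direction or the other. The log2 fold change was 0.16 ± 0.11 (SE), with a 95% interval of -0.09 to 0.42 and an adjusted p of 0.53 in limma. Leaving out 1 array gave 0.094 (without TGF-beta array 1) to 0.23 (without TGF-beta array 2). ID2, which can also bind the retinoblastoma protein, read 9194 and 8884 in the untreated arrays and 8862 and 8747 in the treated arrays. The groups separated by a narrow margin in the opposite direction, and the log2 fold change was -0.04 ± 0.10 (SE), with a 95% interval of -0.28 to 0.20. For ID1, ID2 and ID3 the interval thus allows at most 1.38-fold, 1.15-fold and 1.34-fold higher levels after TGF-beta, and at the lower end 0.891, 0.825 and 0.938 of the untreated level.

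ID4, the family member known best from neural and mammary cells, varied more between arrays of 1 group than between the groups. Its brightest probe set, 209291_at, read 830.0 and 1385 in the untreated arrays and 1097 and 1183 in the treated arrays. The untreated arrays were the lowest and the highest, with log2 means of 10.07 ± 0.52 and 10.15 ± 0.08 (SD, n = 2 each). The log2 fold change was 0.09 ± 0.22 (SE), and it became -0.28 without untreated array 1 (limma, adjusted p = 0.376). Probe set 209292_at read 184 and 377 in the untreated arrays and 194 and 282 in the treated arrays, with a log2 fold change of -0.17 ± 0.32 (SE). It too had its lowest and highest readings in untreated cells, and its value became 0.34 without untreated array 2. The third, 209293_x_at, whose suffix marks probes shared with other transcripts, read 128 and 141 in the untreated arrays and 144 and 218 in the treated arrays. It gave the smallest p of all 15 probe sets, with a log2 fold change of 0.40 ± 0.19 (SE, limma adjusted p = 0.359), so the 3 probe sets of ID4 did not share a direction. That value was 0.70 without TGF-beta array 1 and 0.097 without TGF-beta array 2.

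The spread between the untreated arrays was concentrated in BMP2 and ID4. From untreated array 2 to array 1 the log2 difference was -0.75 for BMP2 205290_s_at, -0.45 for BMP2 205289_at, -0.74 for ID4 209291_at and -1.03 for ID4 209292_at. A gap at least as large between these arrays was found in 0.702% of all probe sets for the first, 5.46% for the second, 0.756% for the third and 0.122% for the fourth. The brightest probe sets of ID1 and ID3 had gaps of -0.27 and -0.08, as large in 18.7% and 68% of all probe sets. Over the 15 probe sets the median absolute gap between untreated arrays was 0.135, against 0.125 over all probe sets. Untreated array 1 was the lowest of the 4 arrays for 10 of the 15 probe sets, where this held for 23.9% of all probe sets and for 26.2% of those at or above the median brightness, and several of the 10 belong to the same gene. Between the TGF-beta arrays the large gaps were those of ID4 209293_x_at (-0.61), ID4 209292_at (-0.54) and SMAD5 205188_s_at (-0.44). Array 2 read higher in all of these. These patterns were noticed in the values themselves and were not tested.

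**Figure D3:**
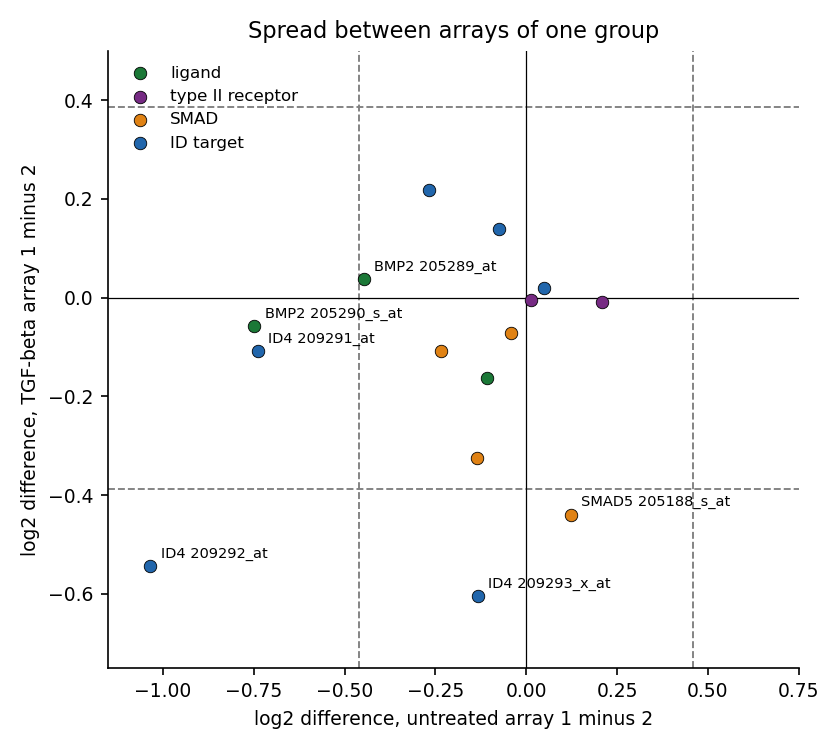
Log2 difference between array 1 and array 2 of the untreated group (horizontal axis) and of the TGF-beta group (vertical axis) for the 15 probe sets, coloured by role. Dashed lines mark the 95th percentile of the absolute difference over all probe sets, 0.46 for untreated and 0.387 for TGF-beta. BMP2 205290_s_at and ID4 209291_at lie far to the left near the horizontal zero line, and ID4 209292_at lies beyond both dashed lines.

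The median over the member probe sets also moved when 1 array was left out. It was 0.01 without untreated array 1 and 0.17 without untreated array 2, beside 0.09 with all 4 arrays. Without TGF-beta array 1 it was 0.11, and without TGF-beta array 2 it was 0.03.

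The wider BMP pathway was taken from lists of ligands, receptors, antagonists, SMADs with their regulators, target genes, and helix-loop-helix partners of the ID proteins, with a short list of TGF-beta branch targets beside them. Some genes are in more than 1 list, and each gene is read by its brightest probe set. Outside the members, 79 genes were measured, of which 0 were called in limma, while before adjustment 8 lay higher and 4 lower (p under 0.05). That is 15.2% of the 79, close to the 16.3% of all probe sets, and their median log2 fold change was 0.005.

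Of 14 measured ligands 0 passed, with a median of 0.07, and 1 had an unadjusted p under 0.05. This was BMP1, a procollagen protease that shares the name and is not a ligand, at 0.41 ± 0.14 (SE, limma adjusted p = 0.201). Its other probe sets gave -0.02 to 0.39. BMP8B, the next by p, was dim and stood at -0.21, and its other probe set gave 0.11. Only BMP1, BMP2 and BMP4 of this list lay above the median probe set. BMP6, the ligand that drives hepcidin in the liver, stood at -0.18 ± 0.12 (SE) from dim readings, and it is named here after its value was seen.

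Of 9 measured receptors and co-receptors 0 passed, with a median of 0.13, and before adjustment 1 lay higher and 1 lower (p under 0.05). ACVR1, a type I receptor for BMPs and activins, read 204 and 219 in the untreated arrays and 309 and 320.0 in the treated arrays. Its arrays stood clearly apart, with a log2 fold change of 0.57 ± 0.11 (SE), and it missed the threshold in limma (adjusted p = 0.064). When 1 array was left out, ACVR1 ranged from 0.52 to 0.63. ACVRL1, the type I receptor known from endothelium, was dim and stood at -0.39 ± 0.13 (SE, limma adjusted p = 0.207), -0.23 without untreated array 1 and -0.55 without untreated array 2. It read 36.2 and 28.9 in the untreated arrays and 25.1 and 24.3 in the treated arrays.

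Of 12 measured antagonists 0 passed, with a median of -0.03, and before adjustment 1 lay higher and 1 lower (p under 0.05). FST (follistatin, which binds activins and some BMPs) read 54.9 and 104 in the untreated arrays and 147 and 120.1 in the treated arrays. As with BMP2, untreated array 1 was low. FST had a log2 fold change of 0.81 ± 0.27 (SE, limma adjusted p = 0.201), which was 0.35 without untreated array 1 and 1.27 without untreated array 2, the latter called (limma, adjusted p = 0.00724). Its other probe set, which was dim, gave 0.18. FSTL1, a secreted follistatin-like glycoprotein, read 310.3 and 269 in the untreated arrays and 190.0 and 223 in the treated arrays, and stood at -0.49 ± 0.13 (SE, limma adjusted p = 0.123).

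Of 17 measured SMADs and regulators 0 passed, with a median of -0.02, and before adjustment 2 lay higher and 0 lower (p under 0.05). BAMBI, a pseudoreceptor without a kinase that dampens BMP and TGF-beta signals, read 1702 and 2300.1 in the untreated arrays and 2703 and 2526 in the treated arrays. Untreated array 1 was again the lowest. The log2 fold change of BAMBI was 0.40 ± 0.15 (SE, limma adjusted p = 0.26), 0.18 without untreated array 1, and 0.62 and called without untreated array 2 (limma, adjusted p = 0.0473). CTDSP1, a phosphatase that acts on SMADs, stood at 0.38 ± 0.13 (SE, limma adjusted p = 0.214). The inhibitory SMADs, SMAD6 and SMAD7, had values of 0.25 and -0.03. SMAD9, a BMP SMAD outside the members, was dim and stood at -0.23 ± 0.12 (SE, limma adjusted p = 0.408).

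Of 18 measured BMP target genes, the 4 ID genes included, 0 passed, with a median of -0.01, and before adjustment 2 lay higher and 1 lower (p under 0.05). GATA2, a transcription factor of blood and endothelium, read 91.3 and 72.4 in the untreated arrays and 126 and 146 in the treated arrays. Its log2 fold change was 0.73 ± 0.14 (SE), just short of the threshold (limma, adjusted p = 0.0662), and its other probe sets gave 0.24 and -0.04. GATA2 ranged from 0.57 to 0.90 when 1 array was left out. HAMP, the hepatic BMP target, read 1353 and 1059 in the untreated arrays and 908 and 942 in the treated arrays. Both TGF-beta arrays lay below both untreated arrays, the same order as that of ID2 and the opposite of that of ID3. Of all probe sets 47.1% separated in 1 direction or the other. The value of HAMP was -0.37 ± 0.14 (SE, limma adjusted p = 0.241). It was -0.20 without untreated array 1, which gave the highest reading, and -0.55 without untreated array 2. Whether HAMP differed from the ID genes was not tested.

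**Figure D4:**
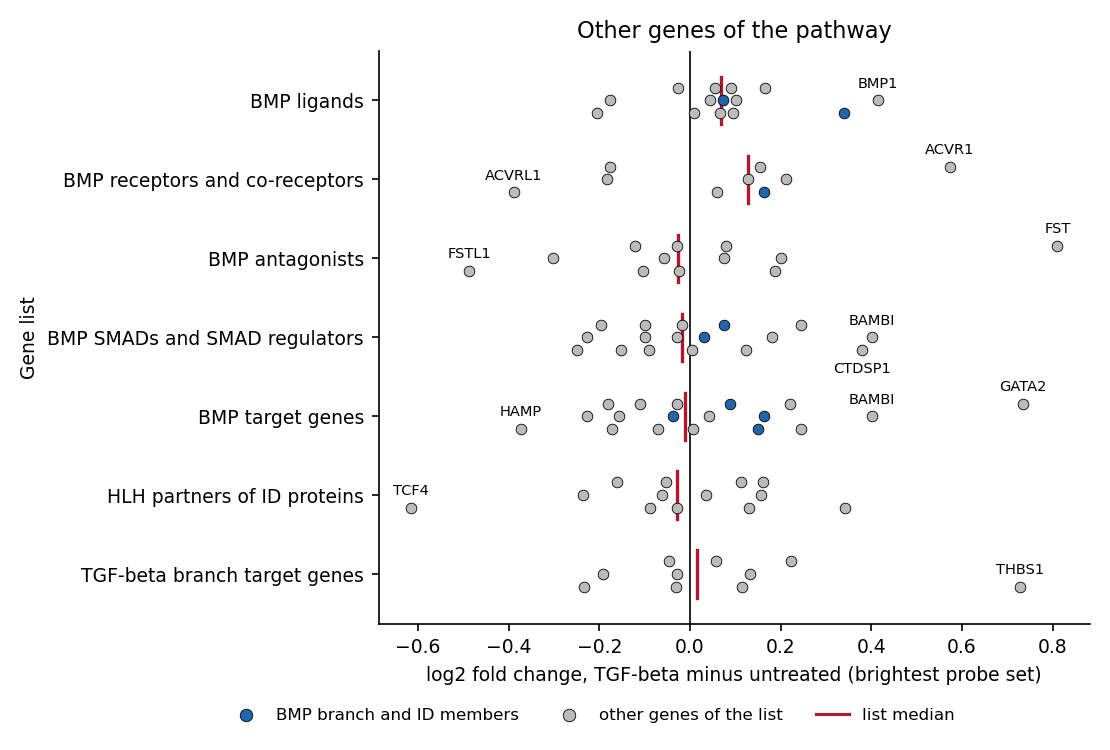
Log2 fold change (horizontal axis, TGF-beta minus untreated) of each gene of the 7 lists, read by its brightest probe set. Members are blue, other genes grey, and red bars are list medians, which lie between -0.03 and 0.13. None of the points passed the threshold in limma (0 called), and the outlying genes are FST, GATA2, THBS1 and ACVR1 on the right and TCF4 on the left.

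Of 13 measured helix-loop-helix partners of the ID proteins 0 passed, with a median of -0.03, and before adjustment 1 lay higher and 1 lower (p under 0.05). TCF4, an E protein, read 302 and 279 in the untreated arrays and 175 and 205 in the treated arrays. Its log2 fold change was -0.62 ± 0.12 (SE, limma adjusted p = 0.0662), and -0.73 to -0.50 when 1 array was left out. Its other 6 probe sets gave -0.55 to -0.01. TCF3, the E protein of the E2A gene, stood at 0.34 ± 0.14 (SE, limma adjusted p = 0.284), 0.17 without untreated array 1 and 0.52 without untreated array 2, and its other 10 probe sets gave -0.16 to 0.65.

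Of 10 measured TGF-beta branch targets 0 passed by their brightest probe set, with a median of 0.02, and before adjustment 1 lay higher and 0 lower (p under 0.05). THBS1, an activator of latent TGF-beta, read 174 and 187 in the untreated arrays and 341 and 262 in the treated arrays, and stood at 0.73 ± 0.14 (SE, limma adjusted p = 0.0666). THBS1 ranged from 0.54 to 0.92 by this probe set when 1 array was left out. Its second probe set, 201109_s_at, read 49.2 and 57.5 against 113 and 106 and was called, at 1.05 ± 0.12 (SE, limma adjusted p = 0.0233). It was the only called probe set among all 7 lists. The remaining probe sets of THBS1 gave 0.17 to 0.97 and were not called. PMEPA1, a feedback inhibitor of TGF-beta signalling, stood at -0.23 ± 0.12 (SE, limma adjusted p = 0.399).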

How the data were processed

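The authors deposited 1 processed intensity per probe set and array on a linear scale, and per the submitters' processing notes these were made with the affy package. Which background correction, normalization and summary they used is not stated there. The deposited intensities had nearly equal quartiles between arrays, so they were converted to log2 with no further scaling. Precision is limited by the number of arrays, 2 per group.

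All 22215 probe sets entered limma (version 3.58.1 in R 4.3.3; lmFit and eBayes, 7.43 degrees of freedom per probe set, of which 5.43 came from the prior), with Benjamini-Hochberg adjustment over all of them and calls at an adjusted p under 0.05. Each adjusted p comes from this test. Of the probe sets 19724 name 1 gene, 568 several and 1923 none in the platform's annotation (possibly outdated), and current symbols were taken from RefSeq by Entrez number. The members and lists were chosen with earlier results of these data known. From each list the 2 genes outside the members with the smallest p are named, with any called gene.

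Tested on simulated data of 22215 probe sets, the fit recovered 4.85% of changes of 0.5 on the log2 scale, 86.9% of 1 and 98.4% of 1.5, with 5.48% false calls. Each simulated run changed 200 probe sets and drew independent noise. In the real arrays 16.3% of all probe sets had an unadjusted p under 0.05 (limma), so these rates need not hold there. Alternatives changed the normalization, the offset, the filter on dim probe sets, the variance prior, the unit of the fit, the replicate block and the arrays used. Plots used matplotlib 3.10.9 (Python 3.11.15).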

Additional observations from a re-analysis of the deposited data

How the results depend on the processing

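The count of 0 called member probe sets held under quantile normalization, median centring, an offset, a filter on dim probe sets, an intensity trend, both fits per gene and the replicate block, and ranged from 0 to 1 when 1 array was left out, the call being BMP2 without untreated array 2 (limma).  All probe sets called numbered 190, against 96 under quantile normalization, 91 with the offset of 16, 73 of 11108 at or above the median brightness, 708 with an intensity trend and 0 to 680 when 1 array was left out (0 without either TGF-beta array, with 2251 and 2712 at an unadjusted p under 0.05 in limma, 312 without untreated array 1). The cause was not tested, other than that the filter tests fewer probe sets and leaving out an array uses fewer arrays.

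The replicate block gave 977 calls over all probe sets, 0 among the members and 5 among the pathway genes (ACVR1, FST, GATA2, TCF4 and THBS1). The labels share replicate numbers and do not say that arrays were paired. Same-numbered arrays did not deviate together over all probe sets (correlation -0.007), which cannot tell whether they were paired. Pathway genes called numbered 0, against 3 with an intensity trend (GATA2, TCF4 and THBS1), 1 with the mean of the probe sets of a gene and 0 to 6 when 1 array was left out. The member median ranged from 0.01 to 0.17 in those fits.

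Of 165 member values under alternatives, 153 kept their direction and side of the threshold, 1 passed it and 11 changed sign, none of them called. When 1 array was left out, log2 fold changes ranged from -0.035 to 0.71 for BMP2 205290_s_at, -0.12 to 0.32 for BMP2 205289_at, -0.28 to 0.46 for ID4 209291_at, -0.69 to 0.34 for ID4 209292_at, -0.0053 to 0.067 for SMAD1 210993_s_at, -0.062 to 0.17 for SMAD1 208015_at, -0.14 to 0.30 for SMAD5 205188_s_at, -0.26 to 0.062 for SMAD5 205187_at and -0.0093 to 0.15 for BMP4. The same range was 0.016 to 0.28 for ID1, 0.094 to 0.23 for ID3, 0.097 to 0.70 for ID4 209293_x_at and 0.058 to 0.27 for BMPR2 209920_at. With the mean of its probe sets SMAD5 stood at -0.012.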
